A study of Homo sapiens with 3 samples.

Results

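Ribosome biogenesis genes encode the machinery that makes ribosomes in the nucleolus. They were taken by their names: genes of the NOP, UTP, RRP, NOL and GNL series, subunits POLR1A to POLR1H of RNA polymerase I, IMP3 and IMP4, and 16 other named nucleolar factors. Of the 18345 genes in the deposited tables, 63 met this rule. None there is named POLR1F, POLR1G or POLR1H, so the rule took 5 polymerase subunits. POLR1F, POLR1G and POLR1H are there under the older names TWISTNB, CD3EAP and ZNRD1, which were placed in a further list outside the rule. RNA-seq covered 3 cell populations made from the human embryonic stem cell line H1, which is an established line. The labels call the cells HEPs, and all were CD31+CD34+ cells of day 4 of blood differentiation, sorted by surface CD105 (endoglin, a co-receptor of endothelial cells) into CD105high, CD105low and CD105neg. All 3 populations came from the same culture scheme, activin A (40 ng/ml) with BMP4 (50 ng/ml) for 2 days and then VEGF (40 ng/ml) with bFGF (50 ng/ml) for 3 days. The labels give no genetic change in any of them. Each population had 1 library, so no difference below has a replicate check, an error or a p-value, and every comparison is of libraries.

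The gate genes followed the sort. ENG, which encodes CD105, stood at 13.8 FPKM in CD105high, 8.56 FPKM in CD105low and 2.12 FPKM in CD105neg. The deposited values were taken as FPKM, a level per length of transcript and per mapped fragment. PECAM1 (CD31) stood at 50.1, 41.9 and 29.9 FPKM and CD34 at 43.2, 39.2 and 21.0 FPKM in the same 3 libraries, so both defining markers of the gate were present in each. A gene was called measured when it reached 1 FPKM in at least 1 library, which 11343 genes did. All 63 ribosome biogenesis genes were measured, although NOL4 passed only through CD105high, where it is highest, and so had to differ.

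Ribosome assembly begins when RNA polymerase I copies the ribosomal DNA into a long precursor RNA. Box C/D and box H/ACA particles, each a guide RNA with a fixed set of proteins, methylate the precursor and turn some of its uridines into pseudouridine. The small-subunit processome folds and cuts the part that becomes the small subunit, other factors build the large subunit, and abundant nucleolar proteins act as chaperones and helicases throughout. Demand for new ribosomes is high in growing cells, and early blood and endothelial cells proliferate.

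A sequence feature that the rule did not use, the E-box CACGTG, was in a larger share of the promoters of these genes than of other measured genes, although most of their promoters lack it and the difference was not tested. This E-box, which basic helix-loop-helix leucine zipper transcription factors bind, was searched in the 300 bases from 250 before to 50 after each annotated start. It is the same on both strands. RefSeq's table on GRCh38.p14 held a promoter for 53 of the 63 genes, and 17 of the 53 (32.1%) contained CACGTG. Among measured genes other than these, 880 of 8799 promoters did (10%), as did 7.43% of all 27305 promoters in RefSeq's table. In 15 of the 53 promoters (28.3%) the first base of an E-box lay within 50 bases of the start on either side, against 351 of 8799 promoters of other measured genes (3.99%), a distance chosen after the positions were seen. Windows of 30 bases or, where the 300 bases end first, fewer are shown for the 6 genes with the highest mean level among the 17, and then for NOP14 and NOP2, the members with an E-box that were at least 1.5-fold lower in CD105high. Capitals mark the E-box, and each line runs 5′ to 3′ on the gene's strand.
NOP10 (chr15:34343130-34343159, minus strand): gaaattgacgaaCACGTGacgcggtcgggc
NOL7 (chr6:13615174-13615203, plus strand): gcctgcgctggcCACGTGgaaagaaacacg
GNL2 (chr1:37595917-37595946, minus strand): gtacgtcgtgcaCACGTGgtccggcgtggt
FBL (chr19:39846356-39846385, minus strand): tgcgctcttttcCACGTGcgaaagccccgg
UTP18 (chr17:51260538-51260567, plus strand): gcagcgaggttcCACGTGagcgcctgcgtt
PES1 (chr22:30591880-30591909, minus strand): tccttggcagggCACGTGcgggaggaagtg
NOP14 (chr4:2963374-2963403, minus strand): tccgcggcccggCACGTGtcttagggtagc
NOP2 (chr12:6568242-6568268, minus strand): aggtccggattgCACGTGgagggccgc

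The E-box began 11 bases before the start in NOP10 and 149 bases before it in NOL7. It began 3 bases after the start in GNL2, 6 in FBL, 4 in UTP18, 13 in PES1, 15 in NOP14 and 35 in NOP2. NOP10 and UTP18 each held a second E-box in the 300 bases. An ETS-type motif, CCGGAAGT on either strand, was in 7 of 53 promoters (13.2%), against 8.83% of those of other measured genes. A match is a description of these letters and not of binding, and the promoters of the other 36 genes only lack the letters in this window. NPM1, NCL, NOP56, GNL3 and POLR1D were among the genes without an E-box there. Members with an E-box had a median log2 fold change of CD105high against CD105neg of -0.32 (17 genes) and those without it -0.31 (36 genes), a comparison with no test. At least 1.5-fold lower were 2 of the 17 and 6 of the 36, and BOP1 and NOLC1, which were also lower, have no promoter in the table. Among other measured genes the medians were -0.12 with it and -0.08 without it. At least 1.5-fold lower there were 64 of 880 with it and 490 of 7919 without it.

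Levels of ribosome biogenesis genes were lowest in CD105high and highest in CD105neg. Summed over the 63 genes they came to 1402 FPKM in CD105high, 1661 FPKM in CD105low and 2027 FPKM in CD105neg, or 0.528%, 0.583% and 0.701% of all FPKM in the library. NPM1 alone made up 28.0%, 29.8% and 33.8% of these sums. Without NPM1 the sums were 1009, 1166 and 1342 FPKM and kept the same order. The median gene stood at 9.72, 11.3 and 12.3 FPKM. In bulk RNA, fewer cells of a type and less RNA per cell cannot be told apart.

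**Figure D1:**
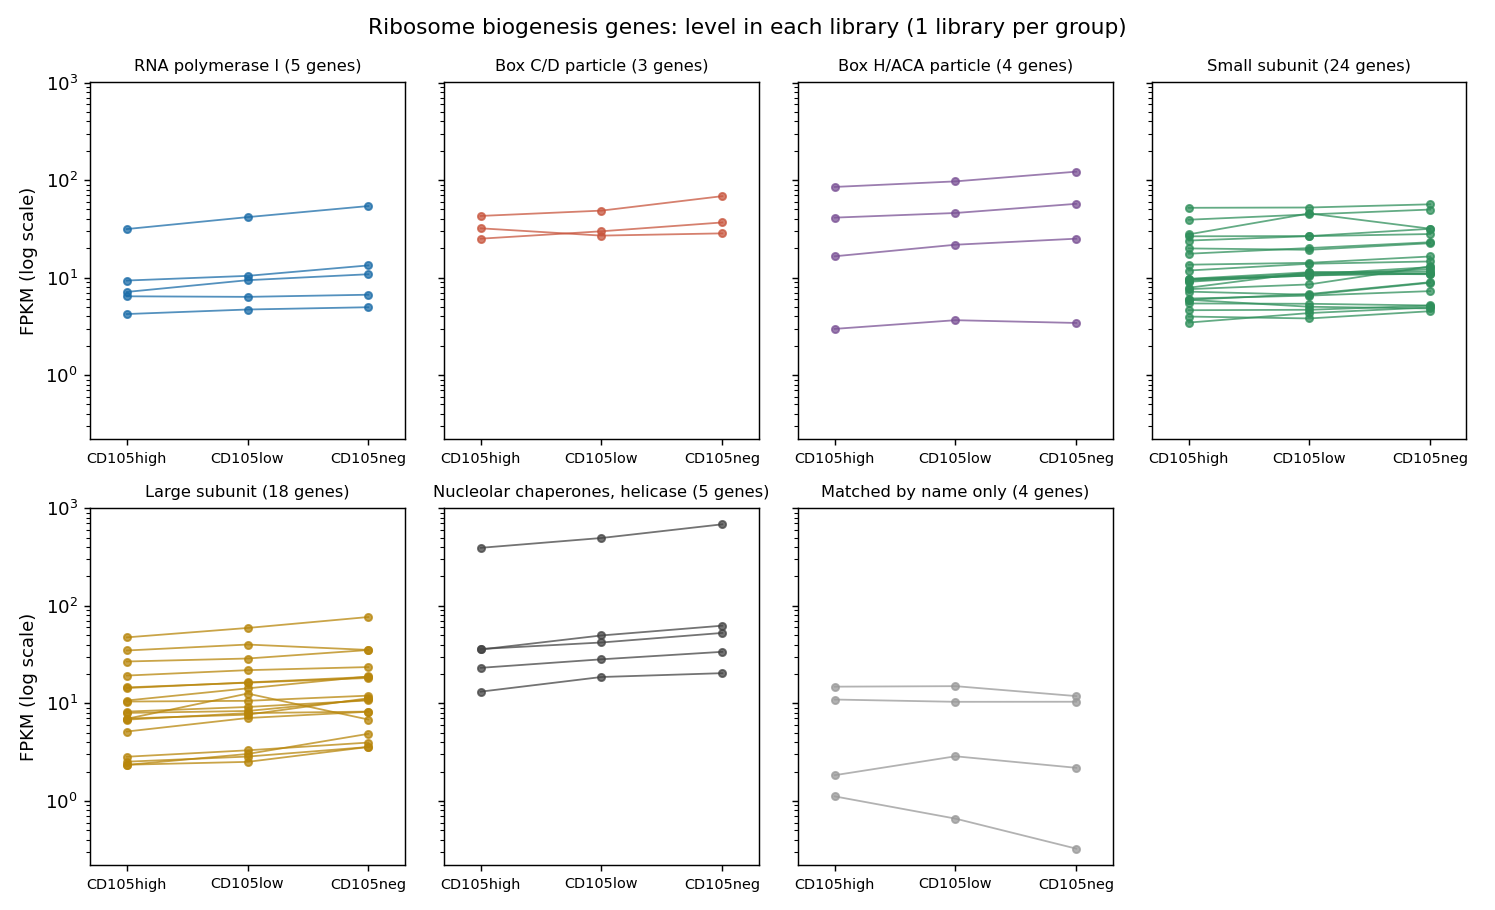
Level of each of the 63 genes in CD105high, CD105low and CD105neg (x axis, 1 library each), in FPKM on a log axis, with 1 line per gene and 1 panel per role. Most lines climb from CD105high to CD105neg, and NPM1 is the highest line at 393, 496 and 685 FPKM. None of the lines of the 4 genes matched by name only climbs at both steps.

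In CD105high against CD105neg, 56 of the 63 genes had a log2 fold change below 0, as did 61.0% of all measured genes. Fold changes here are of FPKM plus 1, which understates the change of low genes. The median of the 63 was -0.34, and that of all measured genes -0.09. At least 1.5-fold lower were 10 of the 63 genes, against 6.88% of all measured genes. At least 1.5-fold higher was 1, NOL4, against 5.65%. NOL4 was measured only through CD105high, so its direction was fixed by the filter. In all 3 libraries together, 46 of the 63 genes (73.0%) had CD105high lowest, CD105low between and CD105neg highest. This order was seen in 36.4% of measured genes. Its reverse was seen in 3 of the 63 genes and in 1998 of the 11343 measured genes. These values are on the scale as deposited. Scaled to equal totals, which moves the median of all measured genes to 0.02, 53 of the 63 genes lay below 0 against 47.8% of measured genes, and 39 had the order against 26.7%. The split over all measured genes, 780 lower and 641 higher as deposited, became 491 and 865 with equal totals and 511 and 837 after centring on the median. That of the 63 genes, 10 lower and 1 higher, became 6 and 1, and 7 and 1.

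RNA polymerase I subunit genes were lower in CD105high, most of all POLR1D. POLR1D (ENSG00000186184.16), which RNA polymerases I and III share, stood at 31.4 FPKM in CD105high, 41.7 FPKM in CD105low and 54.1 FPKM in CD105neg (log2 fold change of CD105high against CD105neg -0.77). POLR1C, its partner in both enzymes, stood at 7.13, 9.40 and 10.8 FPKM (-0.54), and POLR1E at 9.33, 10.4 and 13.3 FPKM (-0.47). CD105high was thus the lowest of the 3 libraries for each of these genes. The catalytic core differed less. POLR1A, the largest subunit, stood at 4.23, 4.71 and 4.97 FPKM (-0.19). POLR1B, the second largest subunit, stood at 6.43, 6.35 and 6.67 FPKM (-0.05), and the sign of its small difference turns with equal totals and with centring. POLR1D was the 1 of the 5 subunits that met the rule to be at least 1.5-fold lower (6.88% of measured genes). The median of the group was -0.47.

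Genes of the proteins of the modification particles were lower in CD105high, except FBL. NOP56, a scaffold of the box C/D particle, stood at 42.9 FPKM in CD105high, 48.6 FPKM in CD105low and 68.4 FPKM in CD105neg (-0.66). It was the 1 of 3 box C/D genes at least 1.5-fold lower, against 6.88% of measured genes. After centring or with equal totals 0 of 3 were. NOP58, the related partner of NOP56, stood at 25.1, 29.8 and 36.8 FPKM (-0.53). FBL, fibrillarin, the methyltransferase of the same particle, stood at 32.0, 26.9 and 28.4 FPKM (0.17). FBL was therefore highest in the library in which its partners were lowest. In the box H/ACA particle, DKC1, dyskerin, the pseudouridine synthase, stood at 16.5, 21.7 and 25.1 FPKM (-0.57). NOP10 stood at 85.0, 96.9 and 122 FPKM (-0.52) and NHP2 at 41.2, 46.0 and 57.1 FPKM (-0.46), and both follow the order of DKC1. Of the NHP2 transcript sequence, sampled in 50-base pieces, 32.5% also occurs in other genes, among them RMND5B on the other strand. How reads were divided between such genes is not stated, and at least 10% is shared in 13 of the 63 genes. An exon of a gene on the other strand overlaps 28 of them. GAR1, the fourth protein of the particle, was low in each library, at 2.98, 3.66 and 3.43 FPKM (-0.15). None of these 4 genes reached 1.5-fold (6.88% of measured genes were lower), and the median of the 4 was -0.49. The level of NOP10 in FPKM, which is per length, was 5.14 times that of DKC1 in CD105high, 4.46 times in CD105low and 4.87 times in CD105neg.

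The small-subunit factors had a median nearer 0 than the polymerase, box C/D, box H/ACA and large-subunit genes, a difference that was not tested. Of the 24, 22 had a log2 fold change below 0 for CD105high against CD105neg, against 61.0% of measured genes. In this role 1 (4.17%) passed 1.5-fold downwards, a smaller share than the 6.88% of measured genes, and none upwards (5.65%). The median was -0.24 (-0.15 after centring and -0.12 with equal totals). The gene that was lower was NOP14, a processome component needed for the small subunit. NOP14 stood at 7.61 FPKM in CD105high, 8.51 FPKM in CD105low and 13.0 FPKM in CD105neg (-0.70), with 11.6% of its sampled sequence shared. Of the most abundant genes of this role, RRP36 was nearer 0 than NOL7. RRP36, which acts in early cuts of the precursor, stood at 51.9, 52.3 and 56.4 FPKM (-0.12, a sign that turns with equal totals), and NOL7 at 39.2, 44.4 and 49.8 FPKM (-0.34). Genes of the 3 proteins of the MPP10 complex, named for their known complex, were all lowest in CD105high, and differed in where CD105low lay. MPHOSPH10 stood at 7.86, 11.3 and 11.1 FPKM (-0.44), IMP4 at 9.65, 10.4 and 12.3 FPKM (-0.32) and IMP3 at 27.7, 45.4 and 31.7 FPKM (-0.19). IMP3 had its highest value in CD105low (0.51 against CD105neg), and 52.7% of its sampled sequence is shared with genes that overlap it on the other strand, which these unstranded libraries cannot separate. UTP14A and UTP14C, near-copies of a processome cofactor, stood at 3.46, 4.33 and 4.94 FPKM (-0.42) and at 5.43, 5.39 and 5.17 FPKM (0.06). The value of UTP14C is uncertain, since 74.5% of its sampled sequence is shared, with ALG11 and UTP14A. UTP23 was the other gene above 0, at 5.92, 5.02 and 4.82 FPKM (0.25), with 14.9% of its sampled sequence shared. Exons of RAD21 and EIF3H overlap it on the other strand. NAT10, which acetylates cytidines of the small-subunit RNA, stood at 6.10, 6.54 and 7.26 FPKM (-0.22). The other small-subunit genes, NOL6, UTP3, UTP6, NOL10, UTP15, RRP7A, UTP18, RRP9, RRP12, UTP11, NOL11, NOP9, UTP4 and UTP20, lay between -0.53 for NOL6 and -0.13 for UTP20.

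Large-subunit factors lay below 0 in CD105high against CD105neg in 17 of 18 cases, against 61.0% of measured genes. As deposited, 4 passed 1.5-fold downwards (6.88% of measured genes) and none upwards (5.65%), with a median of -0.37. After centring 3 passed downwards (median -0.28), and with equal totals 2 (median -0.27), against 4.50% and 4.33% of measured genes. GNL3 (ENSG00000163938.16), nucleostemin, a GTPase abundant in stem cells, stood at 47.5 FPKM in CD105high, 59.3 FPKM in CD105low and 76.7 FPKM in CD105neg (-0.68). BOP1, of the PES1-BOP1-WDR12 complex that processes the large-subunit RNA, stood at 10.7, 14.2 and 18.9 FPKM (-0.77). Its partner WDR12 stood at 5.14, 7.07 and 8.20 FPKM (-0.58, just short of 1.5-fold), and PES1 at 19.3, 21.9 and 23.5 FPKM (-0.28). RNA of each gene of the complex was therefore lower, unequally, and the proteins were not measured. NOP16 stood at 2.34, 3.03 and 4.87 FPKM (-0.81), the lowest log2 fold change of the 63 genes, and 22.1% of its sampled sequence is shared with ARL10 and HIGD2A, which overlap it on the other strand. NOP2, which methylates the large-subunit RNA, stood at 6.99, 7.66 and 11.3 FPKM (-0.62), and its value is uncertain, with 82.4% shared. NOP53 and NOL12 did not follow this order. NOP53 stood at 34.8, 40.1 and 35.3 FPKM (-0.02, a sign that turns with equal totals and centring), and NOL12 at 6.94, 12.6 and 6.82 FPKM (0.02). NOL12 shares 48.8% of its sampled sequence with another annotated gene, Z83844.1. GNL2, another GTPase of the large subunit, stood at 26.8, 28.8 and 35.2 FPKM (-0.38), and GNL3L, the paralogue of GNL3, at 10.4, 10.6 and 11.996 FPKM (-0.18). The other large-subunit genes, RRS1, RRP1, RRP8, RRP15, BRIX1, NOL8, RRP1B and NOL9, lay between -0.45 and -0.24.

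**Figure D2:**
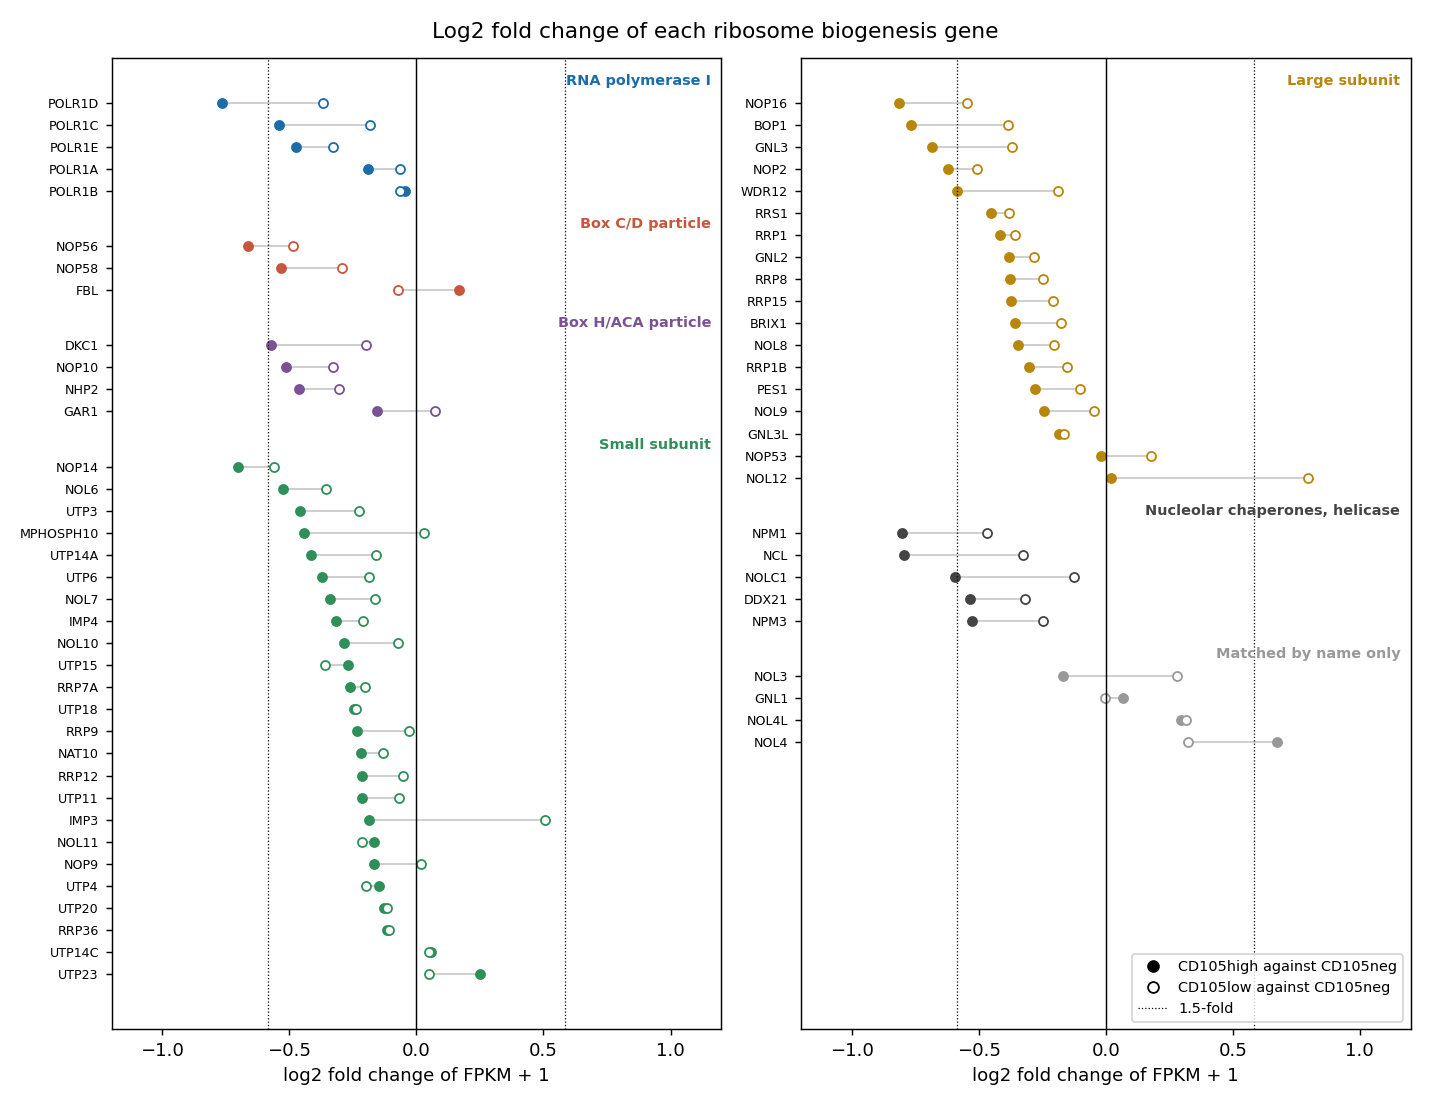
Log2 fold change of FPKM + 1 (x axis) of each of the 63 genes (rows, by role), for CD105high against CD105neg (filled) and CD105low against CD105neg (open), with dotted lines at 1.5-fold. Filled points left of the left dotted line are the 10 genes at least 1.5-fold lower, and most open points lie between the filled point and 0, with IMP3 and NOL12 far to the right.

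The genes of abundant nucleolar proteins had the lowest median of the roles. NPM1 (ENSG00000181163.13), nucleophosmin, a chaperone that also organises the outer layer of the nucleolus, stood at 393 FPKM in CD105high, 496 FPKM in CD105low and 685 FPKM in CD105neg (-0.80). Of its sampled sequence, 41.5% is shared with other genes, among them the pseudogenes NPM1P27 and NPM1P39, so its value is uncertain. NCL (ENSG00000115053.15), nucleolin, which binds the precursor RNA, shares 0.629% and stood at 35.7, 49.7 and 62.5 FPKM (-0.79). NOLC1, a chaperone of the modification particles, stood at 13.2, 18.6 and 20.4 FPKM (-0.59). The RNA helicase gene DDX21 stood at 36.1, 42.1 and 52.7 FPKM (-0.53), and NPM3, a relative of nucleophosmin, at 23.1, 28.3 and 33.7 FPKM (-0.53). All 5 followed the order CD105high, CD105low, CD105neg upwards, against 36.4% of measured genes. Against CD105neg, 3 passed 1.5-fold downwards (6.88% of measured genes), and the median was -0.59. After centring or with equal totals 2 passed (4.50% and 4.33% of measured genes).

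The rule also took 4 genes by their names whose main known role is not ribosome assembly or is not settled. As a group they did not share the direction of the others, with a median of 0.18, although NOL3 lay below 0. NOL4L stood at 14.8 FPKM in CD105high, 15.0 FPKM in CD105low and 11.9 FPKM in CD105neg (0.30), and GNL1 at 10.9, 10.4 and 10.4 FPKM (0.07). NOL3, an inhibitor of cell death, stood at 1.83, 2.86 and 2.18 FPKM (-0.17), and NOL4 at 1.11, 0.658 and 0.324 FPKM (0.67). NOL4 was measured only through CD105high, so its direction was fixed by the filter. Without these 4, 55 of 59 genes lay below 0, 10 passed 1.5-fold downwards and none upwards. The order CD105high, CD105low, CD105neg upwards held for 46 of the 59. The shares of all measured genes were 61.0%, 6.88%, 5.65% and 36.4%.

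CD105low lay between the other libraries for most genes. In CD105low against CD105neg, 52 of the 63 genes lay below 0, against 47.3% of measured genes, and the medians were -0.19 and 0.02. None of the 63 was at least 1.5-fold lower (2.18% of measured genes), and 1 was higher, NOL12 (4.13%; log2 fold change 0.80). NOP14, NOP16, NOP2 and NOP56 had the lowest values, -0.56, -0.54, -0.50 and -0.48. In CD105high against CD105low, 54 of 63 genes lay below 0, against 71.5% of measured genes, and the medians were -0.17 and -0.10. After centring on the median of measured genes, 44 of 63 lay below 0, against 50.0% of measured genes, a share that the centring sets. GNL2, GNL3L, NAT10, NOL4L, RRP1, RRP36, RRP7A, RRS1, UTP18 and UTP20 changed sign with centring. In CD105high, 2 genes lay at least 1.5-fold below CD105low, namely NOL12 and IMP3 (2.19% of measured genes), and none was higher (1.18%). Both have much shared sequence. The split over all measured genes was 248 lower and 134 higher as deposited, and 155 and 201 after centring. Of the 46 ordered genes, 27 had the larger step between CD105low and CD105neg and 19 between CD105high and CD105low. This split was not made over all measured genes, so it cannot be read as a trait of the 46. For NOP14 the log2 difference was -0.56 between CD105low and CD105neg and -0.14 between CD105high and CD105low. For NOLC1 these values were -0.12 and -0.47. The 3 comparisons share libraries, so they are not independent of each other.

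Of the 17 genes outside the order, 8 had their highest value in CD105low, 6 their lowest in CD105low, and 3 followed the reverse order. The 3 were NOL4, UTP23 and UTP14C. The 8 were GAR1, IMP3, MPHOSPH10, NOL12, NOL3, NOL4L, NOP53 and NOP9. Over all 11343 measured genes, 1998 followed the reverse order, and those with CD105low highest or lowest were not counted.

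Cytosolic ribosomal protein genes, the products that this machinery assembles, were lower by more. Of 85 measured, 84 lay below 0 in CD105high against CD105neg, 21 were at least 1.5-fold lower, and the median was -0.48. In CD105low against CD105neg their median was -0.29. Mitochondrial ribosomal protein genes were close to the ribosome biogenesis genes, with 75 of 78 below 0, 8 at least 1.5-fold lower and a median of -0.35. Of all measured genes, 61.0% lay below 0 and 6.88% were at least 1.5-fold lower. The strict order held for 76 of the 85 cytosolic and 58 of the 78 mitochondrial genes, against 36.4% of measured genes. None of these differences between lists was tested.

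**Figure D3:**
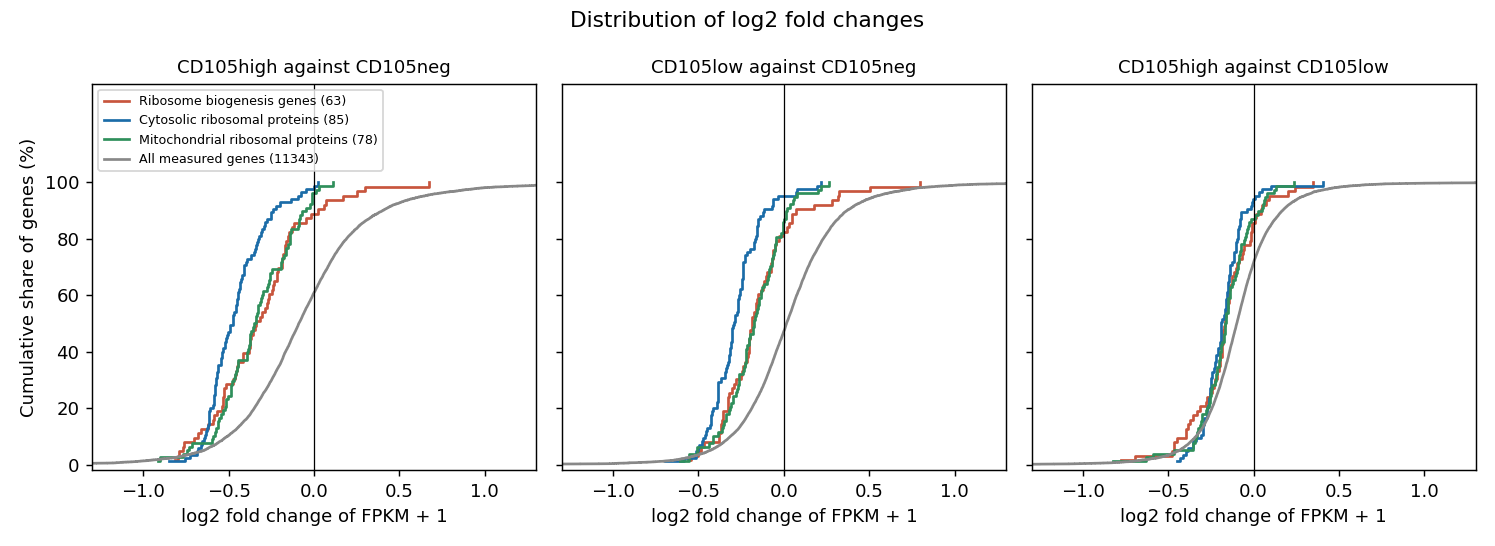
Cumulative share of genes (y axis, %) by log2 fold change of FPKM + 1 (x axis) in the 3 comparisons, for the 63 ribosome biogenesis genes, 85 cytosolic and 78 mitochondrial ribosomal protein genes and all 11343 measured genes. In CD105high against CD105neg the curve of the 63 genes lies left of that of all genes, beside the mitochondrial curve and right of the cytosolic one.

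Further genes of the pathway were named in 5 lists outside the rule. Together 115 were measured, of which 101 lay below 0 in CD105high against CD105neg, 16 (13.9%) passed 1.5-fold downwards and none upwards, with a median of -0.32. Among all measured genes 6.88% passed downwards and the median was -0.09. Of 15 genes of RNA polymerase I and its initiation, 2 were lower (median -0.31). MYBBP1A, which binds the transcription machinery of the nucleolus, stood at 10.2 FPKM in CD105high, 14.1 FPKM in CD105low and 19.5 FPKM in CD105neg (-0.88), and POLR2H, a subunit common to all 3 polymerases, at 19.1, 24.2 and 34.4 FPKM (-0.82). Of 33 small-subunit genes, 6 were lower (median -0.32), led by RCL1 at 5.11, 8.32 and 11.1 FPKM (-0.98) and PNO1 at 8.62, 10.8 and 15.1 FPKM (-0.75). RCL1 had a larger difference than any of the 63 genes. Of 38 large-subunit genes, 5 were lower (median -0.33), among them EBNA1BP2 at 30.7, 38.7 and 53.6 FPKM (-0.79) and WDR74 at 17.7, 25.9 and 29.9 FPKM (-0.72). Of 18 genes of the exosome and RNA trimming, 2 were lower (median -0.31), EXOSC3 at 4.72, 6.37 and 9.69 FPKM (-0.90) and EXOSC2 at 12.4, 16.4 and 21.2 FPKM (-0.73). The 11 genes that assemble the modification particles were near the values of all measured genes, with 1 lower (9.09%) and a median of -0.12. It was the ATPase gene RUVBL2 at 56.6, 66.9 and 88.4 FPKM (-0.63).

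**Figure D4:**
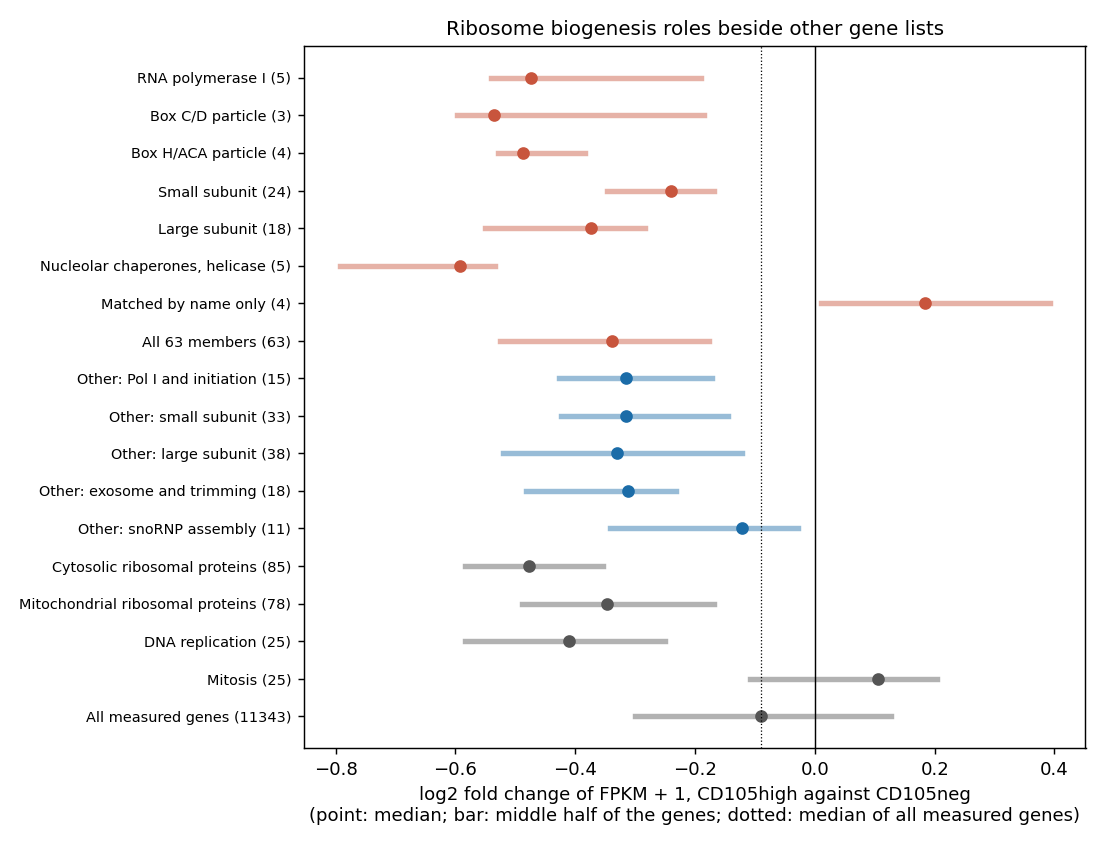
Median log2 fold change of FPKM + 1 in CD105high against CD105neg (points) with the middle 50 percent of genes (bars), for the roles among the 63 genes (red), the further pathway lists (blue) and other lists (grey), with the number of genes in brackets. The nucleolar chaperones lie lowest at -0.59, the 4 genes matched by name lie above 0 at 0.18, and the dotted line marks all measured genes at -0.09.

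Some members also hold small nucleolar RNA genes in their own gene bodies. These RNAs are cut from introns and guide the modification particles. In GENCODE release 29, 8 of the 63 genes (12.7%) contained at least 1 such gene on the same strand, 23 in all, against 211 of 11274 other measured genes (1.87%), a difference that was not tested. GNL3 held 6, NOP56 held 5, NOP58 held 4, NCL held 3 and DKC1 held 2, and NOP53, NOL11 and POLR1C held 1 each. The 8 host genes had a median log2 fold change of -0.56 in CD105high against CD105neg, with 3 at least 1.5-fold lower (37.5%). The other 55 members had one of -0.30, with 7 lower (12.7%). Among other measured genes the medians were -0.20 for hosts and -0.09 for the rest, with 10.4% and 6.75% at least 1.5-fold lower. NOP53 and NOL11, at -0.02 and -0.17, lay apart from the other hosts.

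Genes of other cell types and of the cell cycle also differed between these libraries, and their part in the differences above was not tested. Of 12 measured genes of 21 on an erythroid and megakaryocyte list, 11 lay at least 1.5-fold below CD105neg in CD105high, and the list summed to 24.8 FPKM in CD105high, 41.4 FPKM in CD105low and 91.0 FPKM in CD105neg. The defining genes HBA1, HBA2, HBZ, AHSP and SLC4A1 stayed below 1 FPKM in every library. Of 20 endothelial genes, 16 were higher and 1 lower, with sums of 2685, 2493 and 1730 FPKM. Of 12 measured mesenchymal and mural genes of 15, 6 were lower and 1 higher (sums 487, 562 and 555 FPKM), and of 9 pluripotency and epithelial genes, 1 was lower (127, 134 and 138 FPKM). DNA replication genes were lower, with 6 of 25 at least 1.5-fold lower, a median of -0.41 and sums of 628, 720 and 878 FPKM. Mitosis genes were not, with 1 of 25 higher, a median of 0.11 and sums of 1249, 1406 and 1220 FPKM. Of all measured genes, 6.88% were at least 1.5-fold lower in CD105high against CD105neg and 5.65% higher.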

How the data were processed

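Each of the 3 libraries has a deposited table of 18345 genes with 1 value per gene. Per the submitters' processing notes, BWA, Bowtie, RSEM and the build hg19 were used, with no version, role or order; neither annotation nor filters are stated there. Neither labels nor headers name the unit, and the authors' deposited values were treated as FPKM, which cannot be told from TPM here. Per the labels' protocols, a TruSeq kit was used on 2 ug of total RNA, a kit that does not mark strand. The value column of CD105neg reads as CD105 positive, and groups were taken from the titles. With no read totals to hand, values carry no counting interval.

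Libraries were compared on log2(FPKM + 1) over measured genes (1 FPKM or more in some library), and 1.5-fold counted as apart (Python 3.11.15, pandas 2.3.3, numpy 2.4.6). The counting was tested on simulated data. Shared sequence is the share of 50-base pieces, taken every 40 bases of a gene's GENCODE 29 transcripts, found on either strand in another gene. Named genes were all members of roles with up to 8 genes, those 1.5-fold apart, the 3 most abundant of each role, and up to 3 per further list. Complexes, paralogues, E-box distance and small RNA hosts were added later, and NAT10 and UTP23 were named outside the naming rule. Members and lists were chosen with earlier results of these data known. RefSeq coordinates are on GRCh38.p14, not the files' build.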

Additional observations from a re-analysis of the deposited data

How the results depend on the processing

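No paired analysis was possible because each group has 1 library. For the same reason nothing could be left out within a group, and no alternative can stand in for a replicate. No median of the 63 genes changed sign under any alternative run. In CD105high against CD105neg, lower genes numbered 6 with a pseudocount of 5 (against 2.42% of measured genes), with equal totals (4.33%) and, of 50, without genes sharing at least 10% of their sequence (6.88%; chosen after the data were seen), and 32 with a lower limit, a log2 fold change of 0.32, against 22.8% of measured genes. Higher genes there numbered 0 with a pseudocount of 5 (2.83%), at or above 10 FPKM (6.20%), and without the 4 genes taken by name (5.65%). The median was -0.22 with equal totals. In CD105low against CD105neg, 2 were lower and 2 higher with a pseudocount of 0.1 (3.94% and 6.01% of measured genes), 0 higher with 5 (1.83%), and 15 lower and 3 higher with the lower limit, against 9.50% and 12.7% of measured genes. In CD105high against CD105low, 1 was higher with a pseudocount of 0.1 (1.90%), 1 lower with 5 (0.661%), and 12 lower and 1 higher with it, against 11.2% and 4.16%. The median there was -0.0715 after centring and -0.0785 with equal totals. The order held for 36 genes after centring, against 27.8% of measured genes. The causes of these shifts were not tested.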
